A study of Rattus norvegicus with 24 samples.

Results

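The AP-1 family of transcription factors was followed in RNA-seq values of the rat nucleus accumbens (NAc), through its 7 core genes Fos, Fosb, Fosl1, Fosl2, Jun, Junb and Jund. Members were taken by gene symbol, by a rule that names the family and sets no threshold on a value, and they are 7 of the 32545 genes in the table. All rats were adult male Sprague Dawley rats, 8 weeks old on arrival, of no engineered genotype, and each group holds 4 libraries, 24 in all. In the injection experiment, rats first received 5 intraperitoneal injections of lipopolysaccharide (LPS, a bacterial cell wall component that activates the innate immune system) at 250 µg/kg, or of saline, spread over 2 weeks. After 1 week by the labels, a gap that the study's methods give as shorter, they received an intraperitoneal injection of heroin on each of 5 days at doses that climbed from 1 to 5 mg/kg, or saline. By the labels they were killed 1 hour after the last injection. The study's methods put death within 1 hour of the end of a locomotor assay that followed this injection. The groups carry the names of both treatments in that order: LPS-Heroin had both, LPS-Saline and Saline-Heroin had 1 each, and Saline-Saline had neither. In the self-administration (SA) experiment, rats with a jugular catheter took heroin at 0.075 mg/kg per infusion (Heroin-SA) or saline (Saline-SA) in 10 daily sessions of 6 hours, and were killed directly after the last session. The injected rats spent time in a locomotor chamber between the last injection and death, and the SA rats were housed singly on a reversed light cycle, so the experiments differ in more than the route of heroin. Core and shell of the NAc were dissected together.

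AP-1 binds DNA as a pair of proteins joined by a leucine zipper. Jun proteins pair with themselves or with a Fos protein, while Fos proteins need a Jun partner. Fos, Fosb, Junb and in many tissues Fosl2 are immediate early genes, whose transcription rises within minutes of synaptic activity or growth factor signals and ends soon after, whereas Jund is made at a steady level in most cells. In the striatum, to which the NAc belongs, Fos is the standard marker of recently active neurons, and a truncated splice product of Fosb builds up over repeated exposure to drugs of abuse. The values used here sum over all transcripts of a gene, so full-length and truncated Fosb were not separated.

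Values are FPKM, fragments scaled by gene model length and library size, which allow levels of different genes to be compared per length. Whole reads could be recovered from them, and the 24 libraries held 12312878 to 18850240 reads on genes. All 10 markers of medium spiny neurons, the main neurons of the NAc, were above 0 in every library, with summed levels of 1224 to 3266 FPKM. Markers of neighbouring tissue varied between libraries. Slc17a7, the vesicular glutamate transporter of cortical neurons, ranged from 36.6 to 374 FPKM, and Ttr, the transthyretin gene of the choroid plexus, reached 318 FPKM in Saline-Saline replicate 1. LPS-Heroin replicate 1 stood apart from its group in the genes described here: it was the highest of its 4 libraries in 5 of the 6 members tested and in 18 of 24 other activity-regulated genes (75.0%), against 23.1% of all 15113 genes tested. Counts of members called that rest on this library are given with and without it. Since it was singled out by these same genes, values without it are descriptions only.

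The 5′ flanking sequence is shown for 3 members that differ in behaviour below, as RefSeq gives it on the GRCr8 assembly. Each run holds the 250 bases before the annotated transcription start, 5′ to 3′ on the coding strand, and capitals mark a match on either strand to the cyclic AMP response element (CRE, TGACGTCA), its shorter form TGACG, the AP-1 site itself (TGANTCA), the CArG box bound by serum response factor, or the TATA sequence TATAAA. Junb and Jund are shown because they were the most abundant pair of Jun genes and only one of them was called after heroin, and Fosl2 because it was called after injected but not after self-administered heroin. The difference in heroin effect between routes was not itself called for any member.
Junb, chr19:40080876-40081125, plus strand: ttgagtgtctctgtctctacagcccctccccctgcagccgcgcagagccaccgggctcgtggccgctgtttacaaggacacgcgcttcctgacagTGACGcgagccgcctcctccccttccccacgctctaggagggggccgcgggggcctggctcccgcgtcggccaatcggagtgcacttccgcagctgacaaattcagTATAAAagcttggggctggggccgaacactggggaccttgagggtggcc
Jund, chr16:18769772-18770021, minus strand: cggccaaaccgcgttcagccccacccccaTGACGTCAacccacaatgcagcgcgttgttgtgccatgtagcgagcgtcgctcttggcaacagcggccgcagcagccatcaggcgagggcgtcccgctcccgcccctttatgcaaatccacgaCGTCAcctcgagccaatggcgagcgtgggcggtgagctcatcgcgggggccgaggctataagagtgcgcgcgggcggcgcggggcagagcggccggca
Fosl2, chr6:30039270-30039519, minus strand: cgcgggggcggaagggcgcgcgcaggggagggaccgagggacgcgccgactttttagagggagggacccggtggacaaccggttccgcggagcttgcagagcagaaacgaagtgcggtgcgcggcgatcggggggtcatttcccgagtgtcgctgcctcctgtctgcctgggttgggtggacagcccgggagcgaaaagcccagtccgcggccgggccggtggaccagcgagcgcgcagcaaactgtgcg

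The Junb flank held TGACG at −155 and TATAAA at −49, counting back from −1 at the base before the start and naming the first base of the match. The Jund flank held a full CRE at −221, which itself contains TGACG on both strands at −221 and −218, and a further TGACG on the other strand at −98. In the Fosl2 flank none of these motifs was matched. Of 33469 RefSeq flanks of this length, 1.59% held the CRE, 18.2% TGACG, 6.34% the AP-1 site, 1.5% the CArG box and 12.9% TATAAA. RefSeq entries were held for 5 of the 7 members, and none for Fos and Jun. The flanks of Fosb and Fosl1 were searched but are not printed. On the other strand, Fosb held TATAAA at −180 and Fosl1 TGACG at −148 and −84. These matches are letters in a window and say nothing about which factor was bound.

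The 7 genes covered a wide range of levels. Jund, the steadily expressed Jun partner, was the most abundant, from 93.7 to 123 FPKM over the 24 libraries (2303 to 3409 reads). Junb, a Jun partner that is itself induced by activity, ranged from 29.9 to 99.9 FPKM, and Jun, the founding member, from 20.0 to 32.9 FPKM. Among the Fos genes, Fos ranged from 4.48 to 53.5 FPKM (107 to 1170 reads), Fosl2, which encodes Fra-2, from 2.20 to 19.3 FPKM, and Fosb from 2.57 to 12.9 FPKM. Fosl2 was counted on a gene model of 744 bases within a locus of 18060 bases, so its values rest on only 22 to 215 reads. Fosl1, which encodes Fra-1, lay at 0.0427 to 0.767 FPKM with 1 to 24 reads, under the mean of 0.5 FPKM required for testing, so 6 of the 7 members were tested.

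**Figure D1:**
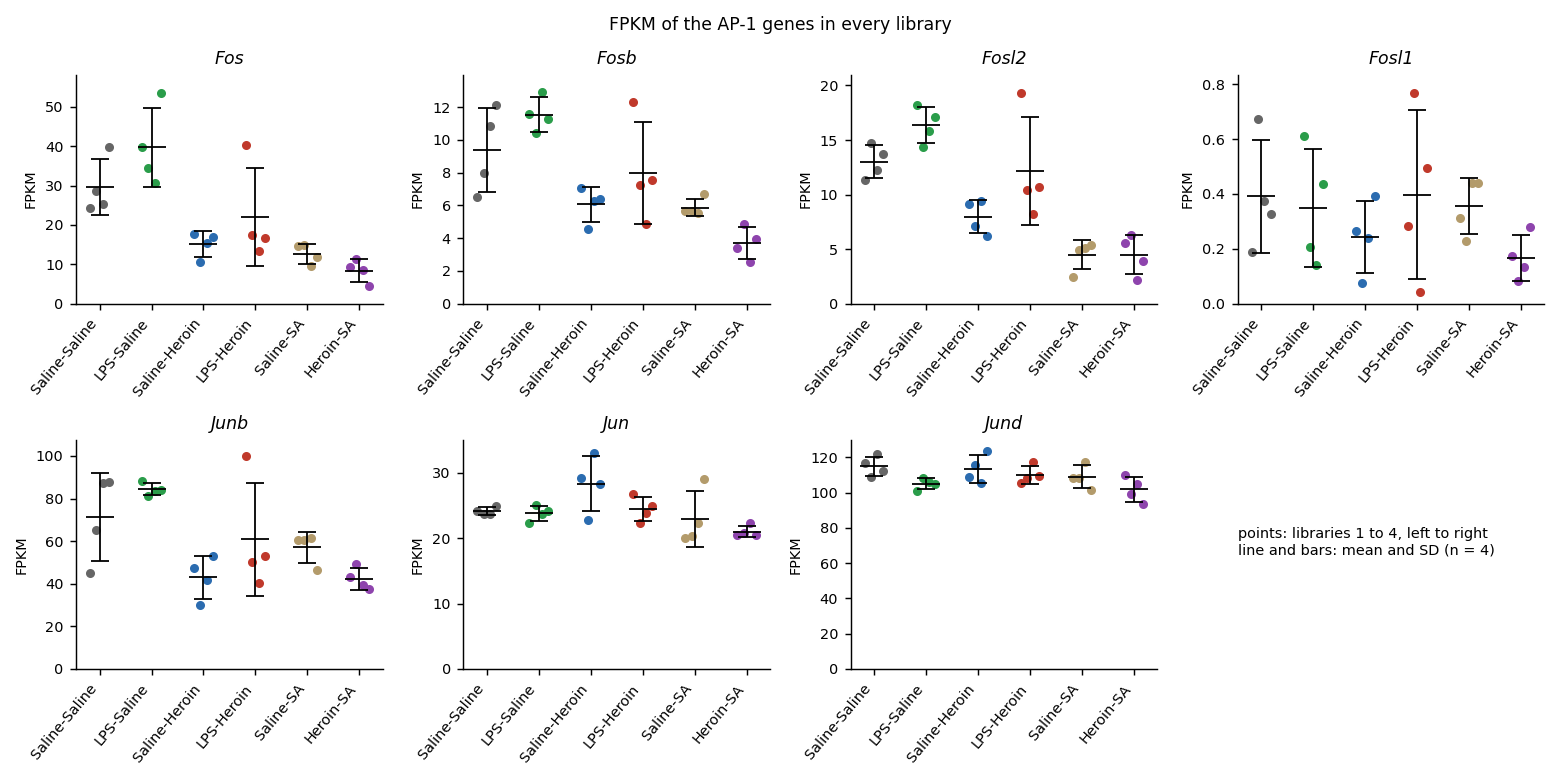
FPKM (vertical axis, from 0) of each AP-1 gene in every library, by group (horizontal axis), with 1 point per library in the order of replicates 1 to 4 and the mean and SD of the 4 libraries as a line and bars. Fos in Saline-Heroin lies between 10.5 and 17.7 FPKM and in Saline-Saline between 24.3 and 39.8 FPKM, while Jund stays between 93.7 and 123 FPKM in all groups.

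On the build used for the files, rn6 by the submitters' processing notes, Fos (ENSRNOG00000008015) lies on the plus strand of chromosome 6 from 109300433 to 109303299 and Fosl2 (ENSRNOG00000052357) on the minus strand of the same chromosome from 25598936 to 25616995. Fosb (ENSRNOG00000046667) lies on chromosome 1, minus strand, from 80214494 to 80221710, and Fosl1 (ENSRNOG00000020552) on the same chromosome, plus strand, from 220826560 to 220835066. Jun (ENSRNOG00000026293) is on chromosome 5 from 114011189 to 114014277, Junb (ENSRNOG00000042838) on chromosome 19 from 26092974 to 26094756 and Jund (ENSRNOG00000019568) on chromosome 16 from 20485029 to 20486707, all on the minus strand. The gene models of Jun, Junb and Jund are as long as their loci, with no intron counted out. None of the 7 genes overlapped another gene of the table.

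The first comparison asked what injected heroin did in rats without LPS. Fos was at 24.3, 28.6, 25.3 and 39.8 FPKM in the 4 Saline-Saline libraries and at 17.7, 10.5, 15.5 and 16.9 FPKM in the 4 Saline-Heroin libraries. Every Saline-Heroin library was below every Saline-Saline library. On the scale of log2(FPKM + 0.1), Fos fell by 0.96 ± 0.20 (SE), with a 95% interval from limma of −1.41 to −0.50. A gene is called here, and said to have risen or fallen, when its unadjusted limma p is at most 0.05 and its log2 fold change at least 0.378 in size, thresholds that the study used for its pattern analyses. In bulk tissue, fewer cells of a type and less RNA per cell cannot be told apart.

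Fosl2 also separated the groups, at 11.4, 14.7, 12.2 and 13.7 FPKM in Saline-Saline and 9.09, 7.15, 9.42 and 6.25 FPKM in Saline-Heroin. It fell by 0.71 ± 0.15, with an interval of −1.04 to −0.38. Fosb, whose splice products include the stable truncated form, was at 6.52, 7.96, 10.9 and 12.1 FPKM in Saline-Saline and 7.07, 4.56, 6.27 and 6.37 FPKM in Saline-Heroin. The lowest control library was inside the heroin range, and the fall was 0.59 ± 0.21. Junb was at 44.9, 65.0, 87.4 and 87.7 FPKM in Saline-Saline and 47.5, 29.9, 41.6 and 53.1 FPKM in Saline-Heroin, a fall of 0.71 ± 0.24. For Junb too, only Saline-Saline replicate 1, the library rich in Ttr, overlapped the heroin group; the part of choroid plexus tissue in this was not tested.

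Jun and Jund were not called. Jun was at 24.1, 23.6, 23.6 and 24.9 FPKM in Saline-Saline and 29.1, 22.8, 32.9 and 28.2 FPKM in Saline-Heroin, with 3 of the 4 heroin libraries above all controls and 1 below them. Its difference was 0.22 with a 95% interval of −0.01 to 0.45 (limma). Jund differed by −0.02, with an interval of −0.17 to 0.12, so a change of the size seen for Fos lies outside it.

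Thus 4 of the 6 tested members were called lower in Saline-Heroin, against 1.67% of the 15143 genes tested. Fos and Fosl2 also had groups that did not overlap in this direction, as had 1.49% of genes. None of the falls passed adjustment over all genes (limma adjusted p = 0.750 for each of the 4), nor did any other gene, while 995 genes had an unadjusted p under 0.05. Without Saline-Heroin replicate 2 these counts were higher, with 1509 genes under 0.05, 394 called lower against 253 with all libraries, and 3 past adjustment, none of them a member. Limma-voom on the recovered reads also gave 0 genes at an adjusted p under 0.05, here and in every later comparison of treatments. Over FPKM values, an exact two-sided permutation test of the 4 against 4 libraries gave p = 0.0286 for Fos and Fosl2, the smallest it can give, and 0.0571 for Fosb and 0.0857 for Junb. Without 1 library at a time, 3 or 4 members remained past the thresholds, Fos, Fosl2 and Junb in all 8 fits and Fosb in 5.

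The second comparison repeated this in rats with a history of LPS. Fos was at 39.9, 34.6, 30.7 and 53.5 FPKM in LPS-Saline and at 40.3, 17.4, 13.3 and 16.8 FPKM in LPS-Heroin. The other 3 LPS-Heroin libraries were below all LPS-Saline libraries, and LPS-Heroin replicate 1 was among them. Fos fell by 0.96 ± 0.32, with a wider 95% interval of −1.68 to −0.23. Junb showed the same arrangement, at 88.2, 81.4, 83.7 and 83.9 FPKM in LPS-Saline and 99.9, 50.4, 40.3 and 52.8 FPKM in LPS-Heroin, and fell by 0.56 ± 0.23. Replicate 1 exceeded every LPS-Saline library for Junb.

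Fosb was at 11.6, 10.4, 12.9 and 11.3 FPKM in LPS-Saline and 12.3, 7.23, 4.88 and 7.55 FPKM in LPS-Heroin, a fall of 0.60 ± 0.24. Fosl2, at 18.2, 14.4, 15.8 and 17.1 FPKM against 19.3, 10.4, 8.21 and 10.7 FPKM, had a difference of −0.50 ± 0.23 that was not called, with an interval of −1.01 to 0.02. For both genes replicate 1 again lay within or above the LPS-Saline range. The differences of Jun, 0.04 (95% interval −0.13 to 0.21), and Jund, 0.07 (−0.05 to 0.19), were not called (limma).

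In this comparison 3 of 6 tested members were called lower, against 1.15% of 15069 genes. All had a limma adjusted p of 0.977, no gene passed adjustment, and 693 genes had an unadjusted p under 0.05. The count rested on single libraries. Without LPS-Heroin replicate 1 it was 4, with Fos at −1.30, Fosb at −0.83, Fosl2 at −0.74 and Junb at −0.82 (limma adjusted p = 0.0750 for Junb, the smallest of the 4). In that fit 243 of 15054 genes were called lower. The count of members was 1 without LPS-Saline replicate 1, 3 or 4 or LPS-Heroin replicate 2, 3 or 4. It was 2 without LPS-Saline replicate 2, and Fos was called in all 8 such fits. Markers of cortical glutamatergic neurons summed to 337 to 433 FPKM in LPS-Heroin and to 109 to 375 FPKM in LPS-Saline, and with their level as a covariate, an alternative chosen after seeing the data, only Fos was called, at −1.05.

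Over both LPS histories, with 8 libraries on each side, heroin was associated with lower Fos, Fosb, Fosl2 and Junb, with 4 of 6 called, against 1.40% of genes called lower. The falls were 0.96 ± 0.20 for Fos (limma adjusted p = 0.411), 0.60 ± 0.16 for Fosb, 0.60 ± 0.14 for Fosl2 and 0.63 ± 0.18 for Junb. All 4 were called in each of the 16 fits that left out 1 library. With all libraries no gene passed adjustment here, and 1231 had an unadjusted p under 0.05. Without LPS-Heroin replicate 1, 4 genes passed, all lower and all of the family or the activity-regulated genes described below: Fos (−1.11) and Fosl2 (−0.73), each with a limma adjusted p of 0.0170, and Egr2 (−1.71) and Nr4a1 (−1.08), each with 0.0465. That library was singled out by its high values of genes of these same kinds, so leaving it out favours such falls. These passes are therefore no independent support. No member passed adjustment in any other fit of a heroin or LPS comparison. The interaction of LPS and heroin, which tests whether the heroin effect differed with LPS history, was called for 0 of 6 members, against 2.31% of genes, and for 0 in each of the 16 fits that left out 1 library. No gene had an adjusted interaction p under 0.05, and 607 had an unadjusted one, all from limma. For Fos the interaction was −0.00 with a 95% interval of −0.88 to 0.87 on the log2 scale. Differences nearly as large as its heroin effect were thus within the error. For Junb the interaction was 0.15 with an interval of −0.63 to 0.93, which includes differences larger than its heroin effect.

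**Figure D2:**
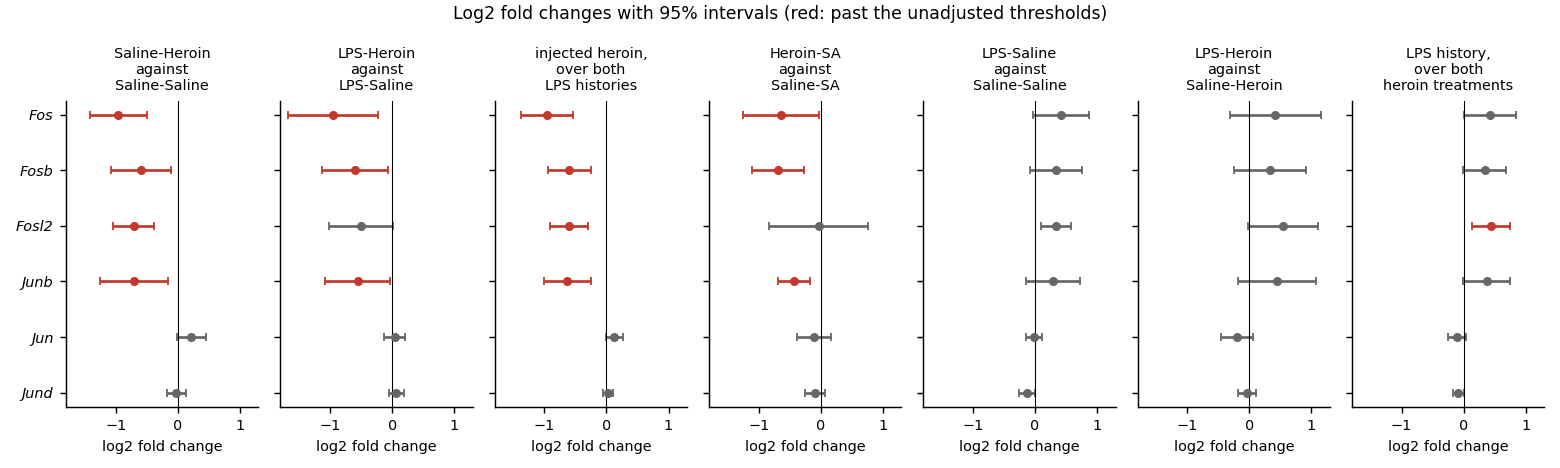
Log2 fold changes (horizontal axis, on log2(FPKM + 0.1)) of the 6 tested AP-1 genes with 95% intervals from limma, 1 panel per comparison, with genes past the unadjusted thresholds in red. Fos, Fosb, Fosl2 and Junb lie left of 0 in the 3 panels of injected heroin, Fosl2 lies near 0 (−0.03) for Heroin-SA, and Jun and Jund stay near 0 throughout.

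The third comparison addressed self-administered heroin. Fosb was at 5.65, 5.63, 5.53 and 6.67 FPKM in Saline-SA and at 3.37, 4.89, 2.57 and 3.95 FPKM in Heroin-SA. All Heroin-SA libraries were below all Saline-SA libraries, as for 3.24% of genes in this direction, and Fosb fell by 0.69 ± 0.19. Junb was at 60.4, 60.6, 61.4 and 46.4 FPKM in Saline-SA and 43.4, 49.1, 39.2 and 37.5 FPKM in Heroin-SA. Saline-SA replicate 4 fell inside the range of Heroin-SA, and Junb fell by 0.43 ± 0.12.

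Fos, already low in Saline-SA at 14.6, 14.8, 9.54 and 11.8 FPKM, was at 9.36, 11.3, 8.48 and 4.48 FPKM in Heroin-SA. The groups overlapped, and the fall of 0.64 ± 0.27 had a 95% interval of −1.26 to −0.03, which ends close to 0. Fosl2 was at 2.48, 4.93, 5.09 and 5.36 FPKM in Saline-SA and 5.56, 6.31, 2.20 and 3.93 FPKM in Heroin-SA. These ranges covered each other, and its difference of −0.03 had a 95% interval of −0.83 to 0.77 (limma), a range that includes a change as large as that after injected heroin. Jun (−0.11, interval −0.38 to 0.16) and Jund (−0.10, interval −0.26 to 0.07) were not called (limma).

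In all, 3 of 6 tested members were called lower in Heroin-SA, against 2.41% of 15024 genes, with limma adjusted p of 0.335 for Fosb, 0.331 for Junb and 0.412 for Fos. No gene passed adjustment and 1725 had an unadjusted p under 0.05. Without Heroin-SA replicate 4, the library with the lowest Fos, only 1 member was called, and of the 8 fits that left out a library Fosb was called in 8, Junb in 7 and Fos in 3. With all 24 libraries in 1 fit, 2 members were called. Fosl1, with 7 to 11 reads in Saline-SA and 2 to 7 in Heroin-SA, was tested only without the filter on low values and then was called with a log2 fold change of −0.79 ± 0.33 (limma adjusted p = 0.512).

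Heroin effects of both routes were also compared directly, each against its own saline group. The difference was called for 0 of 6 members, against 4.38% of genes, and for 1 without Saline-Heroin replicate 2, Saline-SA replicate 1 or 2, or Heroin-SA replicate 3. No gene had an adjusted p under 0.05, and 993 had an unadjusted one (limma). It was largest for Fosl2, at 0.68 with a 95% interval of −0.19 to 1.55, followed by Jun at −0.33 (−0.67 to 0.02). For Fosb, lower after heroin by either route, it was −0.09 (−0.72 to 0.53).

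A history of LPS was compared in rats that then received saline only. No member was called, against 2.37% of 15119 genes. The Fos values listed above for LPS-Saline and Saline-Saline overlapped, and the difference was 0.42 ± 0.20, with a 95% interval of −0.03 to 0.87. Fosl2 differed by 0.33 ± 0.11, past the p threshold but under the fold threshold, and Fosb by 0.34 and Junb by 0.29. Jund, at 101, 108, 106 and 105 FPKM in LPS-Saline and 116, 109, 122 and 112 FPKM in Saline-Saline, was lower in every LPS-Saline library, as were 1.77% of genes, but by only 0.13, also under the fold threshold. No gene had an adjusted p under 0.05, and 1002 had an unadjusted one. Without Saline-Saline replicate 4, the control library with the highest Fos, 2 members were called, and 1 was called without Saline-Saline replicate 2 or without LPS-Saline replicate 2 or 3.

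In rats that received heroin, LPS-Heroin against Saline-Heroin, again no member was called, against 2.20% of 15121 genes. The largest differences were Fosl2, 0.55 (95% interval −0.02 to 1.11), Junb, 0.44 (−0.18 to 1.07), and Fos, 0.42 (−0.31 to 1.15), all from limma. Without LPS-Heroin replicate 1 these became 0.30, 0.17 and 0.08, and without LPS-Heroin replicate 3 the number called became 2. Over both heroin treatments, Fosl2 rose by 0.44 ± 0.14 with LPS history (limma adjusted p = 0.679) and was the only 1 of 6 members called, against 0.907% of genes called higher. Fos at 0.42 (95% interval −0.00 to 0.84), Junb at 0.37 (−0.01 to 0.74) and Fosb at 0.34 (−0.01 to 0.68) were not. This count fell to 0 with the cortical marker level as a covariate (Fosl2 at 0.35), and those markers summed to 86.2 to 266 FPKM in Saline-Saline, below every LPS-Heroin library. It also fell to 0 without LPS-Heroin replicate 1 and reached 4 without Saline-Saline replicate 4 or LPS-Heroin replicate 3. It was 2 without Saline-Saline replicate 3, LPS-Saline replicate 3, Saline-Heroin replicate 1 or 4, or LPS-Heroin replicate 4. No gene had an adjusted p under 0.05 in either comparison, while 637 genes in LPS-Heroin against Saline-Heroin and 1034 over both heroin treatments had an unadjusted one (limma).

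LPS-Heroin was also compared with Saline-Saline, where both treatments differ, and 0 of 6 members were called, against 5.43% of genes. Fos differed by −0.54 (95% interval −1.26 to 0.18) and Fosl2 by −0.16 (−0.69 to 0.36). Without LPS-Heroin replicate 1, Fos (−0.88) and Fosl2 (−0.41) were called, with limma adjusted p of 0.290 and 0.400. No gene had an adjusted p under 0.05, and 1704 had an unadjusted one (limma).

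The saline groups of both experiments were also set side by side, and here the differences of Fos and Fosl2 were larger than in the comparisons of treatments above that kept all libraries. Fos was 12.7 ± 2.51 FPKM in Saline-SA and 29.5 ± 7.11 FPKM in Saline-Saline (SD, n = 4). Fosl2 was 4.47 ± 1.33 against 13.0 ± 1.51 FPKM, and Fosb 5.87 ± 0.537 against 9.36 ± 2.57 FPKM. Fos and Fosl2 did not overlap between the groups, as did 15.8% of genes in this direction. The log2 differences were −1.20 ± 0.19 for Fos, −1.57 ± 0.23 for Fosl2 and −0.63 ± 0.19 for Fosb, with limma adjusted p of 0.00287, 0.00224 and 0.0403. These 3 of 6 members were called lower, against 14.3% of 15150 genes, and 13.9% of genes were lower at an adjusted p under 0.05. Over all genes 1283 were called higher and 2165 lower, a split that scaling to equal medians turned to 1850 and 1803, quantile normalization to 1677 and 1860, and limma-voom to 938 and 2610. Junb (−0.27, 95% interval −0.75 to 0.20), Jun (−0.09, −0.35 to 0.17) and Jund (−0.08, −0.22 to 0.07) were not called (limma). Housing, light cycle, surgery, the task and the time to death differ between these groups and cannot be told apart. Mitochondrially encoded transcripts held 12.9% ± 2.47 of reads in Saline-SA and 7.78% ± 0.819 in Saline-Saline (SD, n = 4), and endothelial markers summed to 74.2 to 95.9 against 58.1 to 66.9 FPKM and microglial markers to 54.2 to 68.1 against 69.3 to 87.9 FPKM, neither overlapping. Marker levels of medium spiny neurons (1909 to 3266 against 1224 to 2478 FPKM) and astrocytes (286 to 323 against 311 to 410 FPKM) overlapped. The part of any of these in the differences was not tested.

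Ordered by mean level, Fos and Fosb both ran from LPS-Saline through Saline-Saline, LPS-Heroin, Saline-Heroin and Saline-SA down to Heroin-SA. Neighbouring groups in this order overlapped, except Saline-SA and Heroin-SA for Fosb. Fosl2 followed the same order with the SA groups exchanged, and these overlapped. Junb placed Saline-SA above Saline-Heroin, since its Saline-SA mean of 57.2 FPKM was nearer to that of Saline-Saline (71.2 FPKM) than for the Fos genes. Jun was highest in Saline-Heroin (28.3 ± 4.19 FPKM) and lowest in Heroin-SA (21.0 ± 0.870 FPKM; SD, n = 4). Jund group means stayed between 102 and 115 FPKM.

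The make-up of the family changed with these levels. Of the summed FPKM of the 7 genes, the 4 Fos genes held 24.1% ± 2.94 in LPS-Saline and 17.2% ± 4.66 in LPS-Heroin, and 19.9% ± 2.38 in Saline-Saline and 13.7% ± 1.81 in Saline-Heroin (SD, n = 4). In Saline-SA and Heroin-SA they held 11.0% ± 1.28 and 9.13% ± 2.02. Jund, whose own level moved little, held 44.1% ± 5.20 in Saline-Saline and 53.1% ± 5.21 in Saline-Heroin, and 56.1% ± 2.96 in Heroin-SA. Without LPS-Heroin replicate 1 the Fos genes held 15.1% ± 2.09 in LPS-Heroin (SD, n = 3). Each share depends on all other members, so these are one pattern and not 7, and transcript levels are not levels of the protein pairs.

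**Figure D3:**
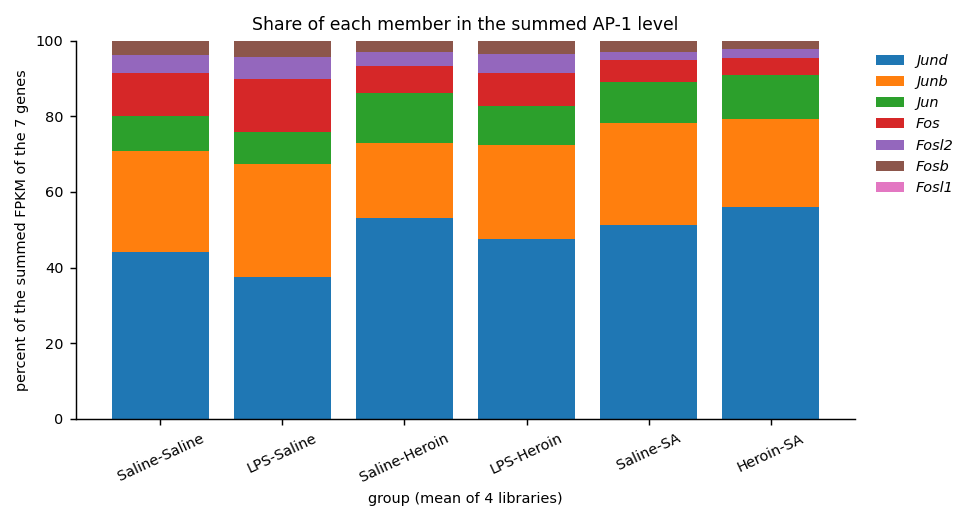
Percent of the summed FPKM of the 7 AP-1 genes (vertical axis, 0 to 100) held by each gene, as the mean of 4 libraries in each of the 6 groups (horizontal axis). Jund takes 37.4% in LPS-Saline and 56.1% in Heroin-SA, and Fos takes 14.0% and 4.55%.

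Members differed in how much they varied between rats of 1 group. In Saline-Saline the coefficient of variation of FPKM was 24.1% for Fos, 27.5% for Fosb and 28.8% for Junb, but 2.52% for Jun and 4.85% for Jund. In LPS-Saline it was 25.1% for Fos but only 3.39% for Junb and 9.07% for Fosb. In LPS-Heroin, with its high replicate 1, it was 56.4% for Fos and 43.7% for Junb, and 14.1% and 13.8% without that library. Counting error alone is small for the genes with 100 reads or more and is larger for Fosl2 and Fosl1.

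The activity-induced members varied together across libraries. Over all 24 libraries, log2 levels of Fos correlated with those of Fosb (Pearson r = 0.89), Fosl2 (0.84) and Junb (0.82), and those of Fosb with those of Junb (0.85). With group means removed, only differences between rats of 1 group count. These values were then 0.57, 0.42, 0.72 and 0.81, or 0.36, 0.19, 0.55 and 0.71 without LPS-Heroin replicate 1. Within the 16 injected rats, Fosb and Junb then had r = 0.94, or 0.90 without LPS-Heroin replicate 1, and within the 8 SA rats 0.14. Fos in the SA rats had r = 0.05 with Fosb and 0.08 with Fosl2, against 0.78 for each in the injected rats. Leaving out LPS-Heroin replicate 1, the values in the injected rats were 0.60 and 0.48. Jun and Jund had r to Fos of only 0.29 and 0.14 over 24 libraries. Within the injected rats, with group means removed, r to Fos was 0.53 for Jun and −0.44 for Jund, and between Fosl2 and Jund it was −0.78. All correlations share libraries, depth and dissection and are descriptions only.

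By the highest r over the 24 libraries among 12306 genes, Fos was most like Egr1 (0.93), Egr4 (0.93) and Egr2 (0.90), zinc finger transcription factors of the early growth response family. Fosb was most like Egr4 (0.92), Fos (0.89) and Nr4a3 (0.89), and Junb most like Egr4 (0.92), Nr4a1 (0.91) and Egr2 (0.91), where Nr4a1 and Nr4a3 encode orphan nuclear receptors. Fosl2 was most like Nr4a3 (0.90), the clock gene Per1 (0.89) and Cpeb3 (0.88), which encodes an RNA-binding protein. Jun was most like Ccdc157 (0.72), Slc7a11 (0.72) and Eif4g3 (0.71), and Jund most like Wbscr28 (0.77), Gps1 (0.69) and Ciart (0.68). No gene exceeded r = 0.8 with Jun or Jund, while 14 did with Fos, 13 with Fosb, 7 with Junb and 165 with Fosl2. These values include differences between groups. With group means removed, r of Fosl2 was 0.62 with Nr4a3, 0.44 with Per1 and 0.53 with Cpeb3. It was then 0.86 for Fos and Egr1, 0.76 for Fosb and Egr4 and 0.90 for Junb and Egr4.

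Other activity-regulated immediate early genes were listed beside the family, 24 of them tested. In Saline-Heroin 7 were called lower, against 1.67% of all genes, and 0 higher: Arc, which encodes a synaptic capsid-like protein, at −1.19, Egr2 at −1.64, Nr4a1 at −0.91, Egr1 at −0.60, Trib1 at −0.54, Egr4 at −0.53 and Tiparp at −0.47. The median log2 fold change of the list was −0.29, against 0.00 over all genes tested. In LPS-Heroin against LPS-Saline 9 of 24 were called lower, against 1.15% of all genes, and 0 higher, the same 7 with Nr4a3 (−0.72) and Sik1 (−0.44), with a list median of −0.33 against −0.00. Over both LPS histories 8 were called lower, against 1.40%, those 7 and Nr4a3 (−0.64). Without LPS-Heroin replicate 1, 12 were called lower in LPS-Heroin against LPS-Saline, where 243 of 15054 genes were, and 11 over both LPS histories.

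In Heroin-SA 5 of the 24 were called lower, against 2.41% of all genes, Egr2 (−1.26), Nr4a1 (−0.61), Arc (−0.55), Egr4 (−0.47) and Sik1 (−0.42), and 1 higher, Homer1 (0.59), a postsynaptic scaffold gene. The list median was −0.13 against 0.01 over all genes tested. Egr1, the gene most like Fos, was not called there. With LPS history over both heroin treatments 4 were called higher, against 0.907% of all genes, and 0 lower, Egr2 (0.71), Trib1 (0.51), Btg2 (0.48) and Nr4a3 (0.48). Only Trib1 was called without LPS-Heroin replicate 1. In LPS-Saline against Saline-Saline, which does not include that library, 4 of the 24 were called higher and 0 lower. There 2.37% of all genes were called in either direction, and the list median was 0.28 against 0.01 over all genes tested. In Saline-SA against Saline-Saline 10 were called lower, against 14.3% of all genes, and 1 higher, and 8 of the lower ones had an adjusted p under 0.05 (limma), among them Homer1 (−1.19), Nr4a3 (−1.13) and Per1 (−0.56). Klf2, a zinc finger factor, was the higher one (0.58).

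**Figure D4:**
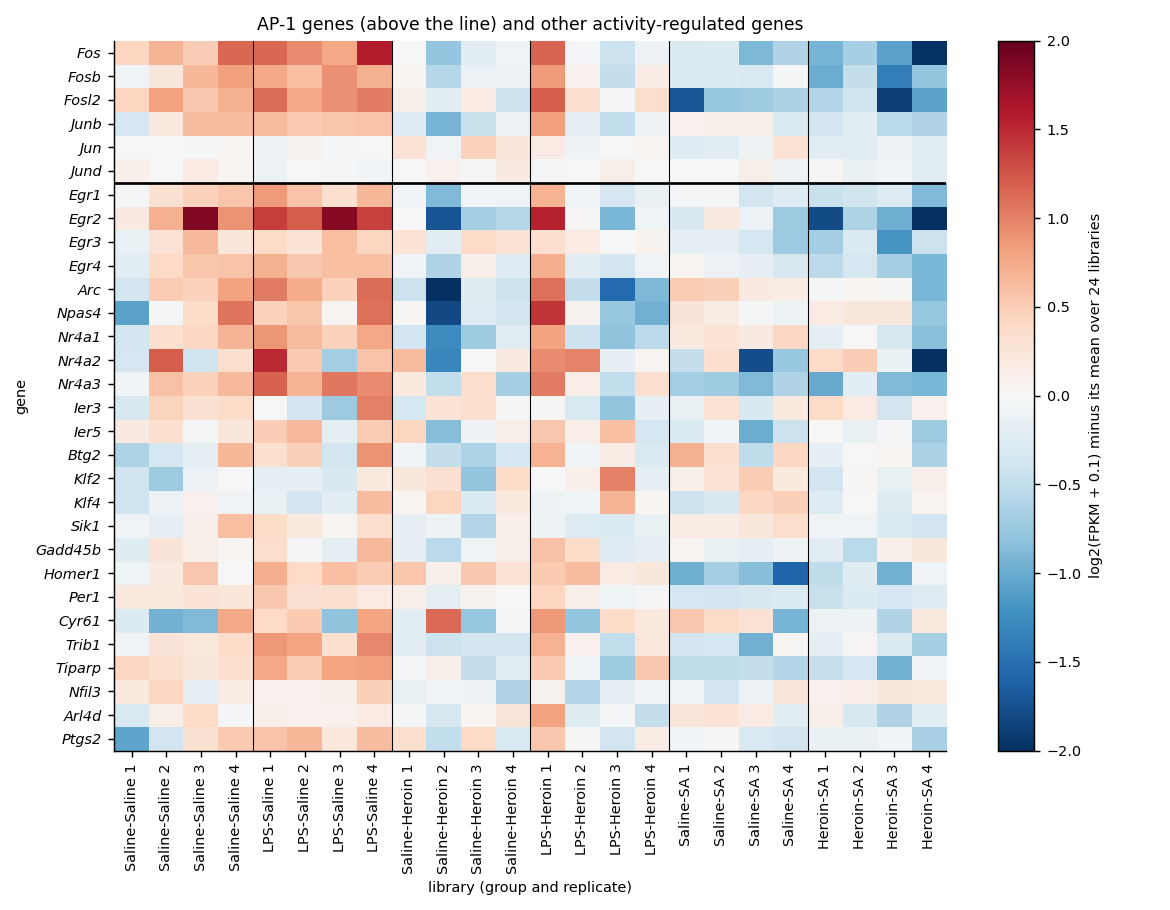
Level of 6 AP-1 genes (above the thick line) and 24 other activity-regulated genes (rows) in each of the 24 libraries (columns, by group), as log2(FPKM + 0.1) minus the gene's mean over the libraries, with red above and blue below the mean and the colour scale ending at −2 and 2. Over the 24 libraries Fos, Fosb, Fosl2 and Junb vary with Egr or Nr4a genes, Fosl2 less closely within groups (r = 0.62 with Nr4a3, group means removed). LPS-Heroin replicate 1 is red where the rest of its group is pale or blue, and Jun and Jund vary little.

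Genes that act on AP-1 were also counted in the heroin comparisons. Of 24 tested kinases and factors that switch on Fos and Jun, 0 were called in Saline-Heroin and 0 in LPS-Heroin against LPS-Saline. Of all genes 1.67% and 1.15% were called lower there, and 465 of 15143 and 345 of 15069 in either direction. At shares this small, 0 of 24 is no result about this list. In Heroin-SA 3 were called higher, against 3.04% of all genes, and 0 lower: Mapk8, which encodes the Jun kinase JNK1 (0.46), the calcium-dependent kinase Camk4 (0.55) and Elk4, a partner of serum response factor (0.43). Among 15 phosphatases and factors that hold AP-1 down, Dusp5, which encodes a phosphatase of MAP kinases, was called lower in Saline-Heroin (−0.79, from 2.16 to 1.22 FPKM), in LPS-Heroin against LPS-Saline (−0.58) and in Heroin-SA (−0.62). Dusp4 (−0.69) was also lower in LPS-Heroin against LPS-Saline, and in Heroin-SA Zfp36, which encodes an RNA decay factor, was higher (0.49). The called brakes, all lower, were 6.67% of their list in Saline-Heroin and 13.3% in LPS-Heroin against LPS-Saline. Of all genes 1.67% and 1.15% were called lower in these comparisons. In Heroin-SA 13.3% of the brakes were called, 1 lower and 1 higher, against 2.41% of all genes called lower and 3.04% called higher. Over both LPS histories Dusp5 (−0.68) and Dusp4 (−0.42) were the 2 brakes called lower after heroin, against 1.40% of all genes. Dusp6 joined them without LPS-Heroin replicate 1. With LPS history over both heroin treatments, Dusp1 (0.45) and Dusp6 (0.51) were called higher, against 0.907% of all genes, and no brake lower.

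Of the other leucine zipper factors that pair with or resemble AP-1, 17 were tested in Saline-Heroin, 19 in LPS-Heroin against LPS-Saline and 17 in Heroin-SA. In each, 0 were called. Of all genes 1.67%, 1.15% and 2.41% were called lower there, and 465 of 15143, 345 of 15069 and 819 of 15024 in either direction. At such shares, 0 called in a list this short is no result about it. Over both LPS histories, with 18 tested, Maff (0.83) and Mafa (0.71) were called higher after heroin, against 1.06% of all genes, and without LPS-Heroin replicate 1 only Maff was. Of 16 tested genes reported elsewhere as AP-1 or FosB targets, Camk2a, the alpha subunit of calcium/calmodulin-dependent kinase II, was called higher in Saline-Heroin (0.41; 1.40% of all genes were called higher), and the cyclin gene Ccnd1 lower in LPS-Heroin against LPS-Saline (−0.42). In Heroin-SA and over both LPS histories 0 of the 16 were called. Of all genes 2.41% and 1.40% were called lower there, and 3.04% and 1.06% higher, so 0 of 16 is no result about this list. With all libraries, none of the listed genes had an adjusted p under 0.05 in a heroin or LPS comparison (limma).

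Between the saline groups of both experiments, some genes of each list were called. Among the kinases and factors, Mapk8 (−1.23), Map2k4 (−0.49) and Map2k7 (−0.44) were called lower in Saline-SA, and Crebbp (0.79) and Mapk11 (0.42) higher. Of the leucine zipper factors 5 were lower, Creb5 (−1.14), Creb1 (−1.03), Atf2 (−0.94), Maf (−0.59) and Atf7 (−0.51), and Atf5 was higher (0.44). Of the brakes 6 were lower, Itch (−0.99), Dusp6 (−0.61), Dusp4 (−0.54), Csnk2a1 (−0.48), Dusp16 (−0.47) and Dusp10 (−0.42), and Zfp36l1 was higher (0.42). Of the reported targets Inhba (−1.06) and Camk2a (−0.54) were lower and Pdyn, the prodynorphin gene, higher (0.57). Of all genes 22.8% were called between these groups, against 46.7% of the brakes, 45.8% of the activity-regulated genes, 37.5% of the leucine zipper factors and 18.8% of the reported targets. No share is given for the kinases and factors, so the genes named from them are no result about that list.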

How the data were processed

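Directional libraries of polyadenylated RNA were sequenced by a provider for 4 biological replicates per group. Fastp, HISAT2, featureCounts and the rn6 build are named in the submitters' processing notes, with versions not given in the sources used here. Whether counting used the strand is not stated. The authors deposited FPKM values for 32545 genes and 24 libraries. FPKM times gene length gave whole reads for 100% of values (tolerance 0.01 reads). The study's methods name more sequenced samples per group than the 4 held here.

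Limma 3.58.1 (R 4.3.3), with moderated variances that follow expression level, was fitted to log2(FPKM + 0.1) of genes with a mean of at least 0.5 FPKM in the libraries of each comparison, in place of the authors' DESeq2 because the values are not counts. No covariate or block entered. Fold changes on this scale understate those of low genes. Adjusted p-values are Benjamini-Hochberg over all genes tested. The fits were tested on simulated data. Pairwise fits used the 8 libraries of 2 groups, the effects over both histories or treatments and the interaction used the 16 injected rats, and the effect by route used the 16 libraries without LPS. Comparisons against one saline group share its libraries.

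The members and lists were chosen with earlier results of these data known. Genes named were the 7 members, the 3 genes most like each tested member (Pearson r, named genes with a mean of at least 1 FPKM), and called genes of 5 lists in comparisons where a member was called. In the text, list genes of the Saline-Saline comparison with Saline-SA are given in part. One gene of the lists is not reported here. Each result was recomputed with other pseudocounts, filters, scalings and models, with a replicate block, and without each library. No multiple-test adjustment over the members alone was made.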

Additional observations from a re-analysis of the deposited data

Results flagged for a closer look

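In each group of 4 libraries the highest and the lowest library were compared with the rest by Dixon's ratio, for 42 combinations of gene and group. In 5 of them 1 library lay apart, where chance gives about 1 in 20. Fos was at 40.3 FPKM in LPS-Heroin replicate 1, far above the other 3 libraries of its group. Fosb was at 6.67 FPKM in Saline-SA replicate 4, above 3 libraries that lay close together. Junb in the same library was at 46.4 FPKM, below the other 3. Fosl2 was at 2.48 FPKM in Saline-SA replicate 1, its lowest value in that group. Jun was at 22.3 FPKM in Heroin-SA replicate 3, above 3 libraries that differed little from each other.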

How the results depend on the processing

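Of 660 fold changes of members recomputed under 10 alternatives that kept every library, 638 kept their direction and their side of the thresholds, 4 fell short of the thresholds, 8 newly passed them and 10 changed sign. The replicate numbers did not pair the samples, since correlations of same-numbered deviations from group means ran from −0.13 to 0.17 and in no comparison were all over 0.1. With the replicate block the members called were 1 for LPS-Saline against Saline-Saline (0 without the block), 1 for LPS-Heroin against Saline-Heroin (0) and 2 for LPS history (1), and the block moved no other count by over 1.5 times. LPS history had 2 members called with a pseudocount of 1 and with limma-voom on recovered reads, and 0 with the cortical marker level as a covariate. That covariate, added after seeing the data, left 1 of 3 in LPS-Heroin against LPS-Saline. Equal medians gave 1 in LPS-Heroin against Saline-Heroin (0). The cause of these moves was not tested.

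These 10 changes of sign were in uncalled log2 differences near 0. With the covariate Jund came to 0.0155 in Saline-Heroin against Saline-Saline, 0.0461 in LPS-Heroin against Saline-Saline and 0.0099 in LPS-Heroin against Saline-Heroin, and with limma-voom Jun came to −0.0137 in LPS-Heroin against Saline-Saline. The interaction of LPS and heroin, near 0 for Fos and Fosb, came to 0.008 and 0.0235 with quantile normalization, 0.0174 and 0.0165 with equal medians, and 0.0007 and 0.002 with limma-voom.

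Leaving out 1 library at a time, members called ranged from 3 to 4 in Saline-Heroin and from 0 to 2 in LPS-Saline and in LPS-Heroin, each against Saline-Saline. They ranged from 1 to 4 in LPS-Heroin against LPS-Saline, 0 to 2 against Saline-Heroin, 1 to 3 in Heroin-SA, 0 to 4 for LPS history, 3 to 4 between the saline groups and 0 to 1 by route. Differences whose sign turned ranged, for Jun, from −0.0456 to 0.0119 in LPS-Saline against Saline-Saline, −0.0243 to 0.0635 in LPS-Heroin against Saline-Saline, −0.0048 to 0.083 in LPS-Heroin against LPS-Saline and −0.1691 to 0.011 in Heroin-SA. For Jund they ranged from −0.0638 to 0.0119 in Saline-Heroin against Saline-Saline and −0.0731 to 0.0027 in LPS-Heroin against Saline-Heroin, and for Fosl2 from −0.2861 to 0.2664 in Heroin-SA. The interaction ranged from −0.3422 to 0.1902 for Fos, −0.2361 to 0.2039 for Fosb, −0.0321 to 0.3767 for Fosl2 and −0.1178 to 0.3549 for Junb, and the effect by route from −0.2379 to 0.0638 for Fosb. Depth limits mainly Fosl1 and Fosl2, with 1 to 24 and 22 to 215 reads. Over all genes, dropping the filter on low values raised the genes called from 358 to 582 in LPS-Saline against Saline-Saline, 345 to 548 in LPS-Heroin against LPS-Saline, 332 to 524 against Saline-Heroin, 349 to 565 for the interaction, 371 to 652 for heroin over both histories and 270 to 533 for LPS history, which a pseudocount of 1 took to 175. The covariate took LPS-Heroin against Saline-Saline from 822 to 484. Where 0 genes passed adjustment in a comparison of treatments, alternatives with every library gave 0 to 7, except 69 in Heroin-SA with all 24 libraries in 1 fit, and fits without 1 library gave 0 to 4.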
